A study of Mus musculus and Homo sapiens with 59 samples.

Results

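Untreated LLC cells that carry a GSDMD construct were compared with untreated parental LLC cells, across all genes of the mouse expression table. LLC is a mouse lung carcinoma line. The comparison took 4 of the 59 libraries of the series: the 2 libraries labelled LLC_GD_NT (construct mGSDMD1-276-HBD, no treatment) and the 2 labelled LLC_WT_NT (construct None, no treatment), all grown in DMEM. The labels name the groups and the replicate numbers. Whether replicates were separate cultures is not stated, so the p-values rest on a spread between libraries that may be technical. Nor do they say whether the construct cells are a single clone or a pool, how the construct was introduced, or which promoter drives it. With a single line of construct cells, an effect of the construct and any other difference between the 2 cell populations cannot be told apart.

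The series asks what cells transcribe when their plasma membrane is opened by a death protein or by a detergent, and polyadenylated RNA was sequenced from fibroblasts (NIH3T3), LLC cells and 2 human carcinoma lines. Other LLC groups are used here only to place the untreated comparison, each with 2 libraries in DMEM. LLC_WT_4OHT and LLC_GD_4OHT are parental and GSDMD-construct cells given 50 nM 4OHT, a tamoxifen metabolite, for 2.5 h. LLC_181_noBB carries hMLKL1–181-2Fv, a dimerizable fragment of human MLKL, and was not treated; LLC_181_BB is the same cells given 100 nM AP20187 for 1 h. LLC_noDig is labelled as untreated with construct None, and LLC_Digitonin as construct None with 55 µg/mL digitonin for 3 h. In fibroblasts, NIH3t3_WT_NT and NIH3T3_GD_NT are untreated parental cells and cells with the same GSDMD construct.

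Gasdermin D (GSDMD) is the pore-forming protein of pyroptosis, an inflammatory form of cell death. Inflammatory caspases cut it, and the freed amino-terminal fragment inserts into the plasma membrane, while the carboxy-terminal part of the intact protein holds it inactive. A hormone-binding domain fused to a protein commonly keeps that protein inactive until its ligand is added, so the untreated construct cells are the resting state of that design; release of the fragment was not measured here.

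The label places the end of the mouse fragment at residue 276, so the reference coding bases around that codon are shown, with codon 276 in capitals. They are coding bases 799 to 855 of Gsdmd transcript ENSMUST00000023238 (GENCODE vM21, mm10, plus strand), run across an exon junction, and lie at chr15:75866149-75866176 and chr15:75866296-75866324.
Gsdmd around codon 276: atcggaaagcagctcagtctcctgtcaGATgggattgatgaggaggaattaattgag
The fragment would take 828 of the 1461 coding bases of that transcript. The deposited Gsdmd value is a single number per library, so reads from the construct and from the endogenous gene are not separated in it.

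Levels are given as TPM, the share of all transcripts in a library scaled to a fixed total. That unit hides how deeply each library was sequenced, and with it the counting error of a gene. A fold change is the difference of 2 means of log2(TPM + 1), which makes the change of a low gene look smaller than it is. A gene was tested where at least 2 of the 4 libraries held 1 TPM or more, and was called where limma gave an adjusted p (Benjamini-Hochberg) under 0.05, written below as passed. The model held all 16 LLC libraries in their 8 groups, and 11178 genes of 19407 were tested. Within groups, log2 values of the 2 libraries correlated across genes with r between 0.991 and 0.994. Between LLC_GD_NT and LLC_WT_NT libraries r was 0.962 to 0.963, and between LLC_WT_4OHT and LLC_WT_NT libraries 0.992.

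2 LLC groups go against their labels. The libraries labelled LLC_noDig and LLC_Digitonin, with construct None, held 333 and 337 and then 326 and 336 TPM of Gsdmd, and 31.3 to 33.0 TPM of Esr1. Those levels are far above both parental groups. Gsdmd was near the level of the GSDMD-construct libraries, while Esr1 was above that of LLC_GD_NT (log2 difference, LLC_GD_NT minus LLC_noDig, -0.55). The libraries labelled LLC_noDig are therefore not treated as a parental baseline below. They were left in their labelled group, and the main comparison does not contain them except through the shared estimate of spread.

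Gsdmd stood far above the parental level in untreated construct cells. It was 376 and 377 TPM in the LLC_GD_NT libraries and 22.6 TPM in both LLC_WT_NT libraries. The groups did not overlap, and the log2 fold change was 4.00 (SE 0.041; limma, Benjamini-Hochberg adjusted p = 3.22e-14). Parental cells thus have a Gsdmd transcript of their own (chromosome 15, 75862327 to 75867408, mm10). Esr1, the gene of estrogen receptor alpha, whose ligand-binding domain binds 4OHT, was 22.5 and 21.9 TPM in LLC_GD_NT and 1.28 and 1.55 TPM in LLC_WT_NT. Both construct libraries were above both parental ones, with a log2 fold change of 3.27 (SE 0.069; limma, Benjamini-Hochberg adjusted p = 8.65e-12). The labels abbreviate the domain as HBD and name no gene for it. Gsdmd was 336 and 342 TPM in LLC_GD_4OHT and 21.5 and 20.6 TPM in LLC_WT_4OHT. In untreated cells with the MLKL construct Gsdmd was 11.8 and 12.6 TPM and Esr1 0.781 and 0.809 TPM, below the parental values. Mlkl, the effector of necroptosis, was 106 TPM in both parental and 91.4 and 93.9 TPM in both construct libraries (log2 fold change -0.19, SE 0.039; limma, Benjamini-Hochberg adjusted p = 0.00124).

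**Figure D1:**
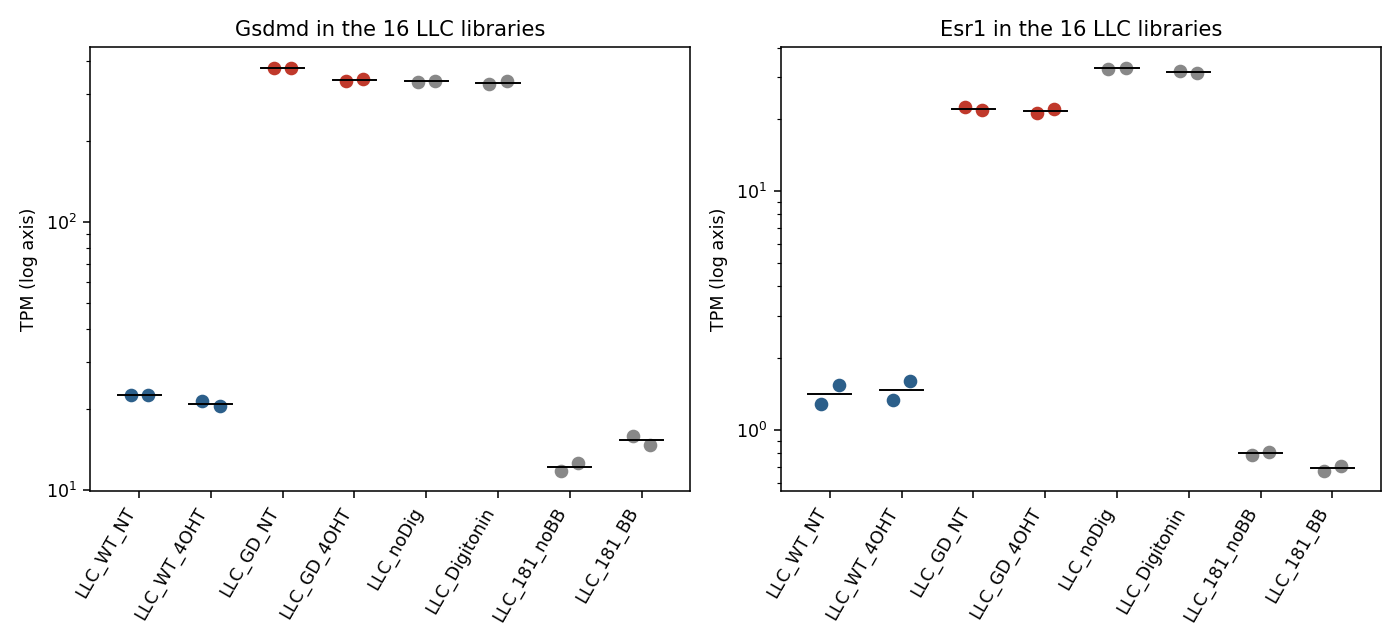
Gsdmd (left) and Esr1 (right) in TPM on log axes, for the 16 LLC libraries in 8 groups; points are libraries and bars the group means. The LLC_GD_NT, LLC_GD_4OHT, LLC_noDig and LLC_Digitonin libraries sit between 326 and 377 TPM for Gsdmd, and the parental and MLKL-construct libraries between 11.8 and 22.6 TPM.

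The untreated cells differed in many genes besides the construct. Of the 11178 genes, 2935 were higher and 3963 lower in construct cells, and the 6898 together are 61.7% of the genes tested (26.3% higher and 35.5% lower). After median centring of each library the split was 3816 higher and 3216 lower, and after quantile normalization 3721 higher and 3292 lower, so the balance of directions depends on the scaling. Most differences were small: 195 genes were at least 2-fold higher and 483 at least 2-fold lower, 6.07% of the genes tested. By contrast, 96 of 11110 genes (0.864%) passed between parental cells given 4OHT and untreated parental cells, and 6 of them were at least 2-fold apart (0.054% of the genes tested). That last comparison varied with the libraries used, from 18 to 30 genes when 1 library was left out, each of the 4 giving fewer than the full set.

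**Figure D2:**
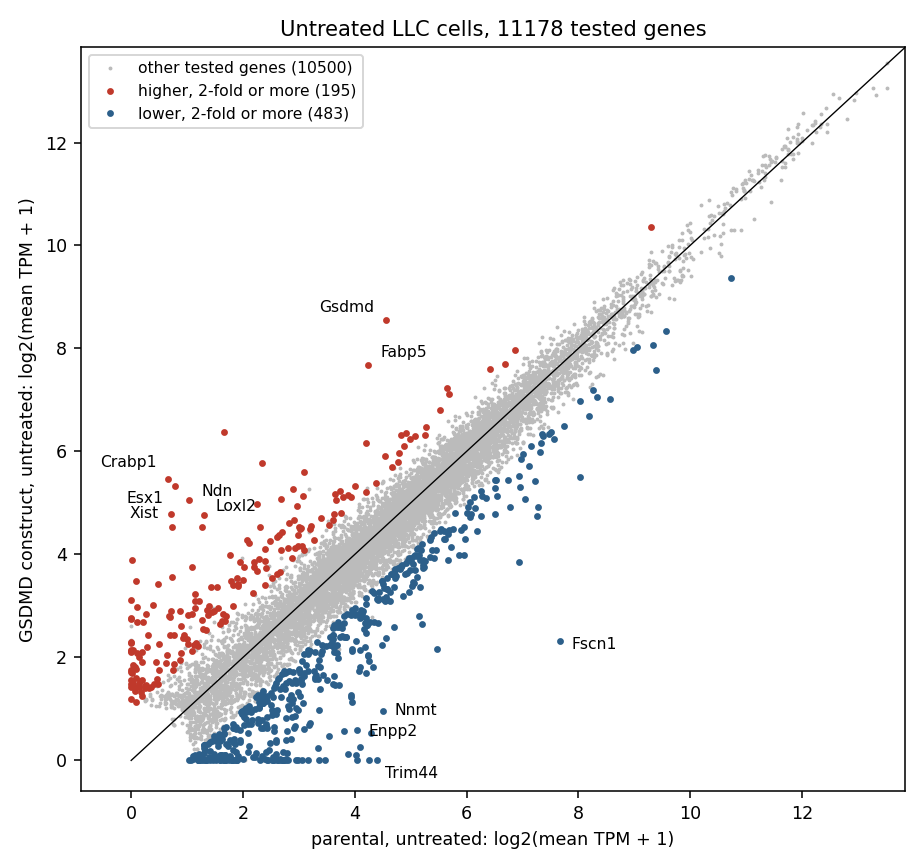
Mean level of each of the 11178 tested genes in untreated parental (x axis) and untreated GSDMD-construct (y axis) LLC cells, as log2(mean TPM + 1), with the line of equal levels. Red points are the 195 genes at least 2-fold higher and blue points the 483 at least 2-fold lower; Gsdmd is among the highest red points and Fscn1 lies farthest below the line.

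Crabp1, a cytoplasmic retinoic acid binding protein, was 41.3 and 45.4 TPM in LLC_GD_NT and 1.01 and 0.159 TPM in LLC_WT_NT. Both construct libraries were high and both parental ones near 0 (log2 fold change 4.86, SE 0.19; limma, Benjamini-Hochberg adjusted p = 1.5e-09). Where levels of LLC_GD_NT and LLC_WT_NT are set against each other, the construct libraries come first. Fabp5, a fatty acid binding protein, was 205 and 204 TPM against 17.5 and 18.4 TPM, with a log2 fold change of 3.44. Nefl, the light neurofilament chain, was 22.4 and 21.8 TPM against 0.834 and 0.477 TPM (3.81). Each of these 3 genes was separated between the groups by far more than the 2 libraries of a group differed. Loxl2, an extracellular collagen-crosslinking enzyme, was 27.5 and 25.1 TPM against 1.48 and 1.45 TPM (3.47). Col5a2, a fibrillar collagen chain, was 10.5 and 9.76 TPM against 0.0805 and 0.0446 TPM (3.39). Grap2, an adaptor protein best known from T cell signalling, was 13.9 TPM in both construct libraries and 0 and 0.0276 TPM in the parental ones (3.88). These genes run from near absence in parental cells to a moderate level in construct cells. Ndn, a paternally expressed imprinted gene, was 32.2 and 32.3 TPM against 1.23 and 0.888 TPM (4.02). The X-linked homeobox gene Esx1 was 38.6 and 40.2 TPM against 0.738 and 0.716 TPM (4.55), and the X-linked Gm773 was 84.3 and 80.4 TPM against 1.69 and 2.67 TPM (4.73). 1700012B09Rik was 56.6 and 50.3 TPM against 5.13 and 3.05 TPM (3.45). Snord58b, a small nucleolar RNA row that polyadenylated libraries measure poorly, was 8.21 and 7.21 TPM and is listed at 0 in both parental libraries.

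The largest fall was in Fscn1, the actin-bundling protein fascin, found in filopodia and invasive cells. It was 209 and 198 TPM in LLC_WT_NT and 3.95 and 4.01 TPM in LLC_GD_NT. Both construct libraries were far below both parental ones (log2 fold change -5.36, SE 0.10; limma, Benjamini-Hochberg adjusted p = 4.67e-12). Cadm1, a cell adhesion molecule of the immunoglobulin superfamily, was 0.22 and 0.178 TPM against 15.9 and 16.3 TPM (-3.83). Slc16a3, the lactate exporter MCT4, was 0.405 and 0.477 TPM against 18.8 and 18.1 TPM (-3.76). Enpp2, the secreted enzyme autotaxin that makes lysophosphatidic acid, was 0.553 and 0.467 TPM against 15.6 and 15.1 TPM (-3.44). In each of these 4 genes both construct libraries lay far below both parental ones. Nnmt, nicotinamide N-methyltransferase, was 1.03 and 0.829 TPM against 23.2 and 20.04 TPM (-3.55). Havcr2, the immune receptor TIM-3, was 0.521 and 0.452 TPM against 12.2 and 13.8 TPM (-3.23). Trim44, a tripartite motif protein, was 19.8 and 20.6 TPM in parental libraries and is listed at 0 in both construct libraries, so no fold is given (limma, Benjamini-Hochberg adjusted p = 4.07e-13). Cck, the cholecystokinin gene, was 9.47 and 9.04 TPM and is likewise listed at 0 in both construct libraries (adjusted p = 1.4e-07 in the same limma fit with Benjamini-Hochberg adjustment). Trim44 and Cck thus gave no detected transcript in construct cells, at a depth that is unknown. In bulk RNA, fewer cells that express a gene and less RNA per cell cannot be told apart.

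**Figure D3:**
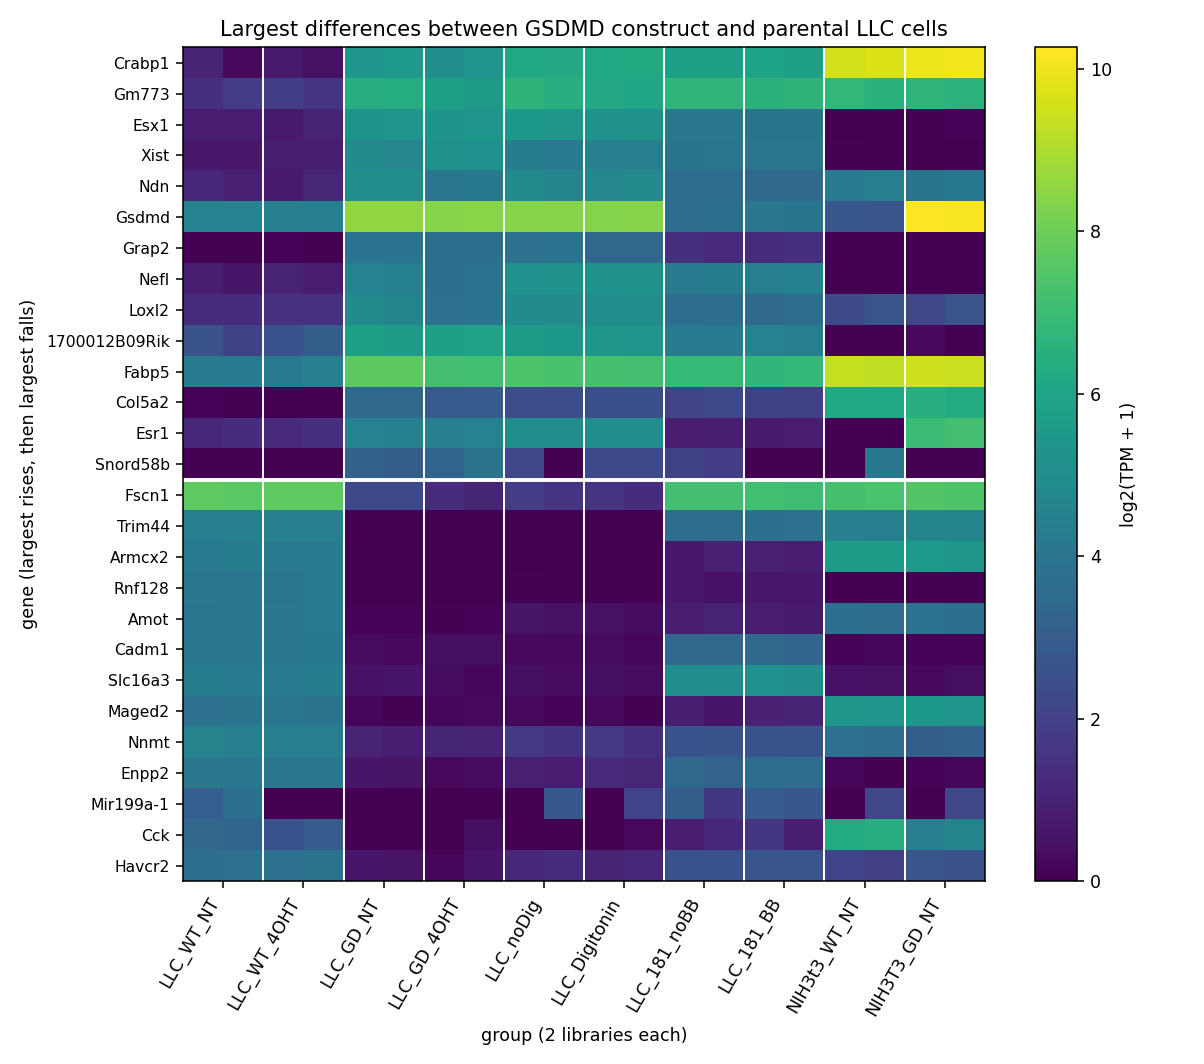
log2(TPM + 1) of the 14 largest rises and of 13 of the 14 largest falls of the untreated comparison (rows) in 16 LLC and 4 NIH3T3 libraries (columns, 2 per group). Most upper rows are darker in both parental LLC groups than in the GSDMD-construct, noDig and Digitonin libraries; in the lower rows Fscn1, Trim44, Cadm1 and Slc16a3 are darker in those libraries than in the MLKL-construct ones.

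Several differences ran from a clear level to none. Genes were counted where both libraries of a group held less than 0.5 TPM and both of the other at least 5 TPM, a rule set after the values were seen. By that rule 21 genes were lost in construct cells and 8 were gained. Between parental cells given 4OHT and untreated parental cells the same rule found 1 lost and 1 gained gene, between untreated MLKL-construct and untreated parental cells 5 lost and 7 gained, and between NIH3T3 cells with and without the construct 4 lost and 3 gained. Of the 21 lost genes, 2 are small RNA rows (Mir199a-1 and Mir6240) and the other 19 are Amot, Armcx2, Cadm1, Cck, Cxx1a, Cxx1b, Glipr2, Krt13, Lrch2, Maged2, Mgst1, Plce1, Ptchd1, Rnf128, Slc16a3, Tmem45a, Tmem47, Trim44 and Ugt1a7c. Mir199a-1 was also listed at 0 in both LLC_WT_4OHT libraries, so its level varied within parental cells. The 8 gained genes are AA414768, Cd34, Celf2, Col5a2, Grap2, Ror2, Serpine2 and Snord58b. Cd34, a sialomucin of progenitor and endothelial cells, was 9.69 TPM in both construct libraries and 0.415 and 0.373 TPM in the parental ones. Ror2, a Wnt5a receptor, was 5.07 and 5.77 TPM against 0.162 and 0.165 TPM, and the protease inhibitor gene Serpine2 was 6.04 and 6.23 TPM against 0.203 and 0.206 TPM. Of the 21 lost genes, 20 were also below 0.5 TPM in both LLC_GD_4OHT libraries and 16 in both libraries labelled LLC_noDig, against 4 in the untreated MLKL-construct libraries. Of the 8 gained genes, 7 were at 5 TPM or more in both LLC_GD_4OHT libraries, 5 in both libraries labelled LLC_noDig and 3 in both untreated MLKL-construct ones, and in none of these groups was one below 0.5 TPM in both.

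The sequences before the start of 4 genes with large differences are shown. Trim44 and Armcx2 are among the lost genes, and Fscn1 was also higher in parental cells. Crabp1 was higher in construct cells, and neither Fscn1 nor Crabp1 met the rule for lost and gained genes. Each holds the 250 bases before the RefSeq start (GRCm38.p6, the build of mm10), with every CG in capitals, the dinucleotide at which mammalian DNA is methylated. Fscn1 lies at chr5:142960105-142960354 on the plus strand, Trim44 at chr2:102400901-102401150 on the minus strand, Armcx2 at chrX:134809222-134809471 on the minus strand and Crabp1 at chr9:54764498-54764747 on the plus strand.
Fscn1: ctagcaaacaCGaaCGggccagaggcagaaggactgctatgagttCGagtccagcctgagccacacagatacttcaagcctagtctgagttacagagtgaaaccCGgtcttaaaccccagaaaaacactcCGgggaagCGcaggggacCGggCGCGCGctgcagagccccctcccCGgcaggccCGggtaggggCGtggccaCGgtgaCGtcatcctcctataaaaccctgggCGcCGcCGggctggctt
Trim44: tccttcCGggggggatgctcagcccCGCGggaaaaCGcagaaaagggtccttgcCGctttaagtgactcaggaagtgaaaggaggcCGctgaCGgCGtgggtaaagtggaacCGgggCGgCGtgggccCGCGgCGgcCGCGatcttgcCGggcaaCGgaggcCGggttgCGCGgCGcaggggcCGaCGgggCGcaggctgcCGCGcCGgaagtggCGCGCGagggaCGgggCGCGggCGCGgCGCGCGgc
Armcx2: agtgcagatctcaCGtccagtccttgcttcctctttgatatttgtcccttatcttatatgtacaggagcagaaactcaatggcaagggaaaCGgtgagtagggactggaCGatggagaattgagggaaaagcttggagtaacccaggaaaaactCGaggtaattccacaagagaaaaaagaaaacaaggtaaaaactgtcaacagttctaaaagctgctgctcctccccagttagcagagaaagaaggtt
Crabp1: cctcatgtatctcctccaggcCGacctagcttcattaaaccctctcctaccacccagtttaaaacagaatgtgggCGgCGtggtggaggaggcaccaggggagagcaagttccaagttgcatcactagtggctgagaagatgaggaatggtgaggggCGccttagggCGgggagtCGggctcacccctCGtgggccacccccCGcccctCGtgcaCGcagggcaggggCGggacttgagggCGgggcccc
The stretches hold 18, 39, 4 and 12 CG, in that order. CG reads the same on both strands, and at least 1 CG was present in 92.1% of the 32851 promoter entries and in 99.3% of the 8451 tested genes that matched an entry. The median was 17 CG for the tested genes, 10 for the 16 lost genes that matched and 8.5 for the 6 gained genes that matched. These counts describe the reference letters only, and methylation was not measured.

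Of the 21 lost genes, 7 lie on the X chromosome by the annotation: Amot, Armcx2, Lrch2, Maged2, Ptchd1, Rnf128 and Tmem47. Cxx1a and Cxx1b were not placed by it, and 339 of the 11178 genes tested are X-linked. Armcx2, an armadillo-repeat protein, was 17.6 and 18.6 TPM in parental cells and is listed at 0 in both construct libraries. Rnf128, the ubiquitin ligase GRAIL, was 15.8 and 15.3 TPM and is listed at 0 in both as well. Amot, the angiomotin scaffold of the Hippo pathway, was 0.0721 and 0.0844 TPM against 15.5 and 15.2 TPM (log2 fold change -3.92), and Maged2 was 0.14 and 0.0545 TPM against 13.0 and 14.4 TPM (-3.75). In NIH3T3 cells the construct difference was 0.14 for Amot, -0.13 for Armcx2 and 0.05 for Maged2, with Armcx2 at 48.2 and 48.4 TPM in parental and 45.2 and 42.8 TPM in construct libraries. Lrch2 (-0.38) and Tmem47 (-0.31) passed as lower there, and Rnf128 and Ptchd1 were not tested. Across the X chromosome in NIH3T3 cells, 18 of 364 tested genes (4.95%) were at least 2-fold lower, against 1.15% of all genes there. At least 2-fold higher were 0, against 1.3%. All 7 genes were below 0.5 TPM in the LLC_GD_4OHT libraries and in the libraries labelled LLC_noDig, and below 1 TPM in the untreated MLKL-construct libraries. Across the X chromosome, 37 of 339 tested genes (10.9%) were at least 2-fold lower, against 4.32% of all genes tested, and 7 (2.06%) at least 2-fold higher, against 1.74%. Those 37 genes were chosen by their fall from LLC_WT_NT to LLC_GD_NT, so the levels of these 2 groups were largely fixed beforehand. Over the 37 genes the median level was 5.16 TPM in LLC_WT_NT, 5.69 in LLC_WT_4OHT, 0.0215 in LLC_GD_NT, 0.0247 in LLC_GD_4OHT, 0.0233 in the libraries labelled LLC_noDig and 0.514 in the untreated MLKL-construct libraries. Of the same 37, 27 were below 1 TPM on average in LLC_GD_NT, a count that follows in part from that choice. Others among them stayed expressed, such as Tmsb4x, the actin monomer binding thymosin beta 4, at 189 and 190.1 TPM against 640.3 and 698 TPM, and the polyamine enzyme gene Sat1. The median log2 fold change of all X-linked genes was -0.01, close to the -0.05 of all genes, and it was above 0 after quantile normalization (0.05) and median centring (0.06). Xist, the noncoding RNA that silences an X chromosome in female cells, was 27.4 and 25.9 TPM in construct libraries and 0.631 and 0.63 TPM in parental ones (log2 fold change 4.08, SE 0.059; limma, Benjamini-Hochberg adjusted p = 4.07e-13). Xist was also 14.9 and 15.4 TPM in the untreated MLKL-construct libraries, and the Y-linked genes of the list were below the filter.

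Medians differed between chromosomes by a small amount. The median log2 fold change was -0.28 over 387 tested genes of chromosome 19, -0.26 over 527 genes of chromosome 6, -0.20 over 861 genes of chromosome 2 and -0.15 over 599 genes of chromosome 9. On chromosome 19, 239 genes were lower and 36 higher, 61.8% and 9.3% of its genes, against 35.5% and 26.3% of all genes. Chromosome 18 stood on the other side, with a median of 0.20 over 273 genes. After median centring the medians were -0.20, -0.19, -0.13, -0.08 and 0.27 for chromosomes 19, 6, 2, 9 and 18. With no filter on low values they were smaller, at -0.17, -0.14, -0.10, -0.09 and 0.05, and with the libraries labelled LLC_noDig as parental cells they were near 0, at -0.04, 0.03, 0.00, 0.04 and 0.03. For untreated MLKL-construct against LLC_WT_4OHT libraries the 5 medians were -0.13, -0.24, -0.20, -0.11 and 0.07, beside -0.06 for all genes. For the libraries labelled LLC_noDig against LLC_WT_4OHT they were -0.28, -0.36, -0.27, -0.25 and 0.15, beside -0.12 for all genes. Both of these comparisons use the same LLC_WT_4OHT libraries, so they are not independent of each other. In NIH3T3 cells with and without the construct they were 0.06, -0.00, 0.07, -0.01 and 0.02. DNA copy number was not measured.

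**Figure D4:**
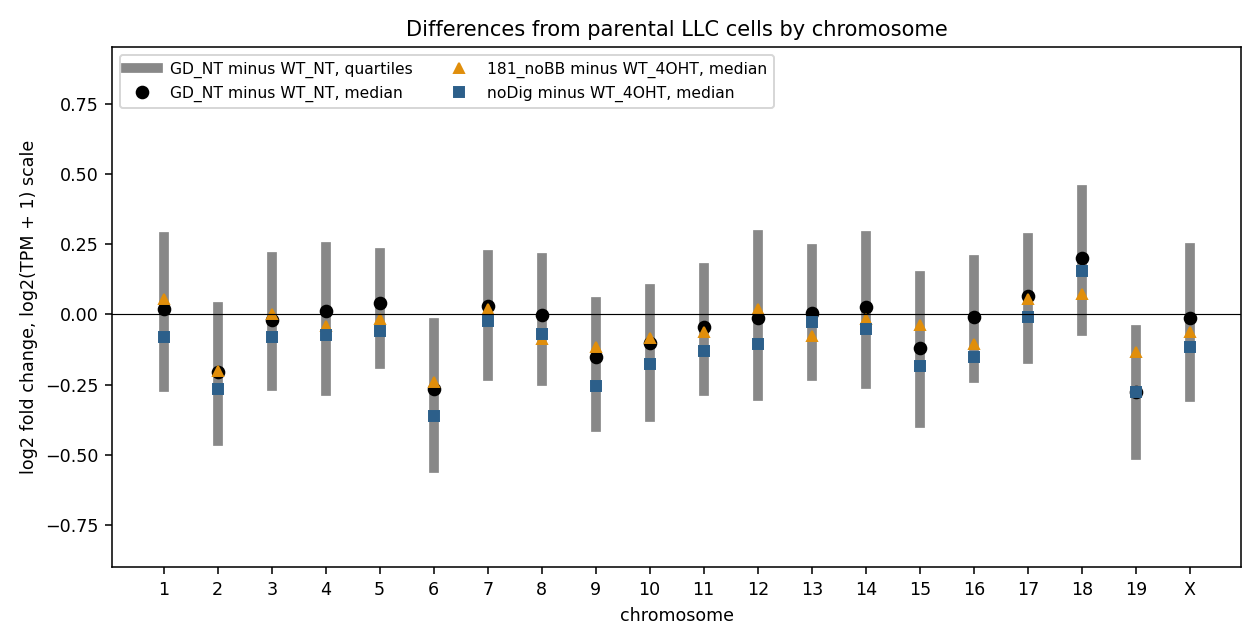
Median log2 fold change of the genes of each chromosome for GSDMD-construct minus parental cells, untreated (black points, with quartiles as grey bars), and for 2 comparisons against LLC_WT_4OHT, which they share (triangles and squares). In the black points chromosomes 2, 6, 9 and 19 lie below 0 and chromosome 18 above 0.

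The cell death machinery that surrounds GSDMD was lower or did not pass. Among all tested genes, 35.5% were lower and 26.3% higher. Of 16 tested genes of a pyroptosis and necroptosis list, 12 were lower, none was higher and 4 did not pass. The median was -0.39 (log2 fold change) against -0.05 for all genes, and 3 were at least 2-fold lower. The other 16 genes of the list in the table were below the filter. With the libraries labelled LLC_noDig as parental cells, 5 genes of the list were lower and 1 higher. Aim2, the cytosolic DNA sensor, was 20.4 and 20.2 TPM in parental and 5.36 and 5.34 TPM in construct libraries. Its groups lay far apart (log2 fold change -1.75, SE 0.063; limma, Benjamini-Hochberg adjusted p = 5.94e-10). Naip2, a receptor for bacterial needle and rod proteins, was 0.535 and 0.572 TPM against 2.40 and 2.63 TPM (-1.18). The third is Casp1, the caspase of canonical inflammasomes, named after its values were seen, at 0.236 and 0.079 TPM against 1.68 and 1.31 TPM (-1.11). Irf2, a transcription factor that drives Gsdmd, was 13.1 and 13.4 TPM against 18.96 and 18.8 TPM (-0.48). Of 33 tested membrane repair and ESCRT genes, 4 were higher, 20 lower and 9 did not pass (median -0.16), and after median centring 8 were higher and 16 lower. Anxa11, an annexin that binds membranes through calcium, was 78.7 and 80.6 TPM against 181 and 174 TPM (-1.15), and Chmp4b, the ESCRT-III filament subunit, was 142 and 144 TPM against 199.9 and 198 TPM (-0.47). S100a11 (-0.60) and S100a10 (-0.48), calcium-binding partners of annexins, were lower too.

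Most genes picked as followers of membrane opening in this series were near or below the parental level at rest. Cxcl1, a neutrophil chemokine, was 2.31 and 1.94 TPM in LLC_GD_NT and 5.71 and 4.78 TPM in LLC_WT_NT. It was lower in both construct libraries (log2 fold change -0.998, SE 0.098; limma, Benjamini-Hochberg adjusted p = 3.29e-06), while the same cells given 4OHT held 401 and 390.2 TPM. Ccl2, the monocyte chemokine, was 79.1 and 80.3 TPM against 133 and 138 TPM (-0.76). Ptgs2, inducible cyclooxygenase, was 52.9 and 49.5 TPM against 72.1 and 76.3 TPM (-0.53), and the NF-kB inhibitor gene Nfkbia was 33.9 and 33.6 TPM against 54.3 and 53.3 TPM (-0.66). The early response factor Egr1 was 0.493 and 0.848 TPM against 1.19 and 1.53 TPM (-0.50), and Fos stayed below the filter in both groups. Lif, an interleukin-6 family cytokine, was 3.25 and 3.48 TPM against 3.45 and 2.89 TPM and did not pass (log2 fold change 0.07, SE 0.11; limma, Benjamini-Hochberg adjusted p = 0.623). Ier3 was 109 and 113 TPM against 116 and 110 TPM and did not pass (-0.02, adjusted p = 0.658 in the same limma fit with Benjamini-Hochberg adjustment), and its sign turned after quantile normalization (0.02) and median centring (0.05). Hmox1, the heme-degrading enzyme, was the exception upward, at 80.7 and 77.5 TPM against 35.5 and 39.1 TPM (log2 fold change 1.06, SE 0.053; limma, Benjamini-Hochberg adjusted p = 1.02e-08). Chac1, a glutathione-degrading enzyme of the stress response, was 4.98 and 3.82 TPM against 3.74 and 2.86 TPM, and its groups lay apart by less than the 2 libraries of a group differed (0.33; limma, Benjamini-Hochberg adjusted p = 0.0426). Chac1 did not pass with construct replicate 1 left out (adjusted p = 0.329) or parental replicate 2 (0.312), nor on the 4 libraries alone (0.107).

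By list, the same resting pattern was mixed. Of 14 tested cytokine and chemokine genes, 4 were higher, 6 lower and 4 did not pass (median -0.06), with falls that included Il33, an alarmin cytokine (0.683 and 0.577 TPM against 3.89 and 4.80 TPM, -1.71), and Cxcl5 (-1.58). Csf1, the macrophage colony stimulating factor, was higher (119 and 117 TPM against 91.8 and 88.8 TPM, 0.38). Of 23 tested immediate early genes, 6 were higher, 10 lower and 7 did not pass (median -0.02), and after median centring 9 were higher and 9 lower. Myc, the growth transcription factor, was 297 and 299 TPM against 166 and 157 TPM (0.88), while Klf4 was 0.857 and 1.33 TPM against 5.89 and 6.12 TPM (-1.75) and Maff fell by 0.75 on the log2 scale. Of 16 tested NF-kB targets, 2 were higher and 7 lower, or 3 and 6 with each library centred on its median, with the adhesion molecule gene Vcam1 at 26.7 and 25.2 TPM against 47.8 and 51.9 TPM (-0.92), Tnfaip2 at -0.74 and Sod2, mitochondrial superoxide dismutase, at 0.51. Shares of a list that are close to 26.3% higher and 35.5% lower are those of all tested genes.

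Interferon stimulated genes were mostly lower, while most antigen presentation genes were not. Of 18 tested interferon stimulated genes, 13 were lower, none was higher and 5 did not pass (median -0.48), a share of lower genes above the 35.5% of all genes, and 11 to 13 were lower whichever library was left out. Ifitm3, a restriction factor of virus entry, was 649 and 662 TPM against 1706 and 1702 TPM (-1.38), and Lgals3bp, a secreted galectin-3 ligand, was 3.24 and 3.74 TPM against 14.8 and 14.1 TPM (-1.79). Ifi35 (-0.73) and Isg20 (-0.56) were lower by less. For untreated MLKL-construct against LLC_WT_4OHT libraries, 13 of 19 interferon stimulated genes were lower and 1 higher (median -0.42, beside -0.06 for all genes). Between untreated GSDMD-construct and MLKL-construct cells, 7 of 18 were lower and 3 higher (median -0.08, beside -0.03 for all genes). Of 17 tested antigen presentation genes, 3 were higher, 6 lower and 8 did not pass (median -0.19), a share of lower genes near that of all genes. The peptide transporter subunit gene Tap2 was 3.77 and 3.70 TPM against 12.3 and 11.2 TPM (-1.43), the loading factor gene Tapbp was 12.6 and 13.2 TPM against 37.0 and 35.3 TPM (-1.42), and the class I heavy chain gene H2-D1 was 128 TPM in both against 241 and 233 TPM (-0.88). Nlrc5, a transactivator of class I genes, moved the other way, from 0.397 and 0.354 TPM to 1.95 and 2.04 TPM (1.12).

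Stress and metabolic lists leaned downward as well. Among all tested genes 35.5% were lower and 26.3% higher, with a median of -0.05. Of 26 tested unfolded protein and integrated stress response genes, 6 were higher and 17 lower (median -0.37), among them Ddit4, an inhibitor of mTOR signalling (31.3 and 29.7 TPM against 64.5 and 58.3 TPM, -0.98), the stress transcription factor Xbp1 (-0.88), and the disulfide isomerases Pdia4 (-0.53) and Pdia6 (-0.45). Of 20 tested oxidative stress and metal genes, 2 were higher and 16 lower, or 3 and 11 with each library centred on its median. Nqo1, the quinone reductase, was 31.0 and 34.1 TPM against 129 and 134 TPM (-1.98), and the glutathione transferases Gsta4 (-1.62) and Gstm1 (-1.41) and the sulfiredoxin gene Srxn1 (-0.89) were lower, opposite to Hmox1. Of 21 tested cholesterol synthesis and uptake genes, 1 was higher and 16 lower (median -0.26). Insig1, which retains the SREBP precursor in the endoplasmic reticulum, was 8.59 and 7.35 TPM against 22.4 and 22.96 TPM (-1.41), and Stard4 (-0.77) and Sc5d (-0.77) were lower as well. The p53 target list was the one with more genes higher than lower among the larger lists: of 22 tested, 12 were higher and 6 lower (median 0.16), including the cell cycle inhibitor gene Cdkn1a (209 and 203 TPM against 129.5 and 127 TPM, 0.68), Zmat3 (0.63) and the apoptosis gene Pmaip1 (1.72), with Sesn1 lower (-0.73). When 1 library was left out, 8 or 9 p53 target genes were higher.

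Growth and matrix genes split in both directions. Of 35 tested cell cycle genes, 6 were higher and 16 lower, with a median of -0.06 (9 and 14 once each library was centred). The inhibitors Cdkn2c (13.9 and 14.8 TPM against 39.8 and 43.6 TPM, -1.48) and Cdkn1b (13.9 and 13.7 TPM against 36.2 and 36.4 TPM, -1.33) were lower, as were the mitotic genes Ccnb2 (-1.25) and Aurka (-0.46), while cyclin D1 (Ccnd1) was higher (0.27). Of 34 tested collagen and matrix genes, 11 were higher and 18 lower, and 6 and 7 of them at least 2-fold. Beside Loxl2 and Col5a2, which were higher, Thbs2, an antiangiogenic matrix protein, was 29.7 and 29.2 TPM against 151 and 157 TPM (-2.35), Dcn, the proteoglycan decorin, was 0.494 and 0.707 TPM against 7.49 and 8.71 TPM (-2.51), and Col3a1 was 126 and 125 TPM against 264 and 256 TPM (-1.05). Of 14 tested adhesion and integrin genes, 4 were higher and 8 lower. Itga7, a laminin receptor subunit, was 4.90 and 5.11 TPM against 25.3 and 24.7 TPM (-2.11) and Itgb7 was 101 and 103 TPM against 298 and 286 TPM (-1.51), whereas Itga3 was 75.3 and 79.4 TPM against 33.3 and 32.0 TPM (1.22). Of 8 tested estrogen receptor target genes, 4 were higher and 3 lower (median 0.19), against 26.3% higher and 35.5% lower among all tested genes. With the 5 TPM filter 1 was higher and 3 lower, and a list this short cannot show whether it leaned one way. Within it Igfbp4, an inhibitor of insulin-like growth factors, was 319 and 323 TPM against 764 and 747 TPM (-1.23). Of 12 tested imprinted genes, 3 were higher and 8 lower, with Ndn higher and Igf2r (-1.14) and Peg3 (-1.05) lower.

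**Figure D5:**
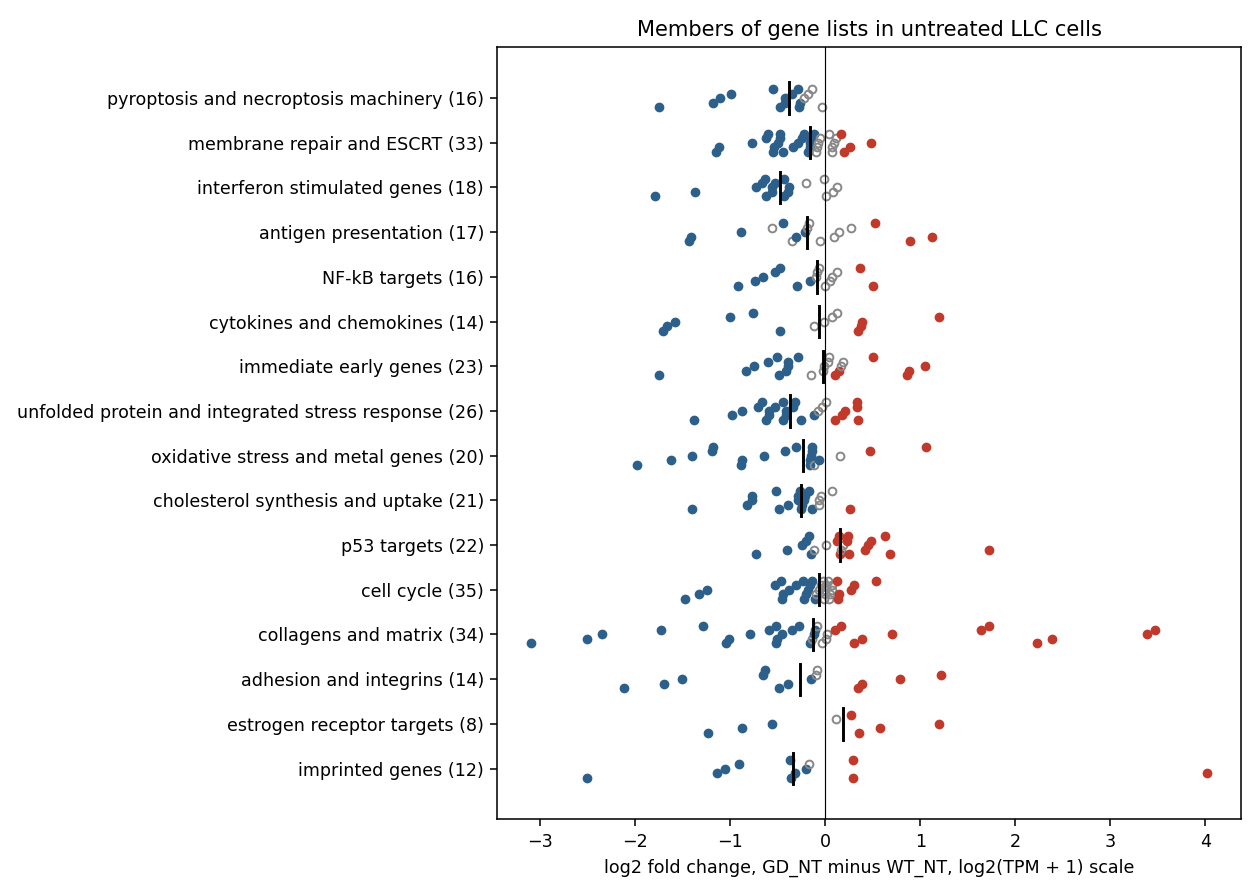
log2 fold change (x axis, GSDMD-construct minus parental cells, untreated) of the tested members of 16 gene lists; the number tested is in parentheses. Red and blue points passed as higher and lower, open points did not pass and the vertical bar is the list's median; the medians run from -0.48 for interferon stimulated genes to 0.19 for estrogen receptor targets.

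In the LLC cells the mesenchymal markers were expressed throughout, and the epithelial and fibroblast markers in part. All 11 mesenchymal markers were at 1 TPM or more in both groups, summing to 9608 to 9675 TPM in parental and 11421 to 11440 TPM in construct libraries. Of the defining lung epithelial markers, Sftpc, Sftpb, Sftpd and Nkx2-1 are listed at 0 in both parental libraries and Sftpb, Sftpd and Scgb1a1 in both construct ones, and Epcam is listed at 0 in all 4. Of 10 lung epithelial markers, 3 were at 1 TPM or more in both parental and 2 in both construct libraries, with sums of 17.3 to 21.5 and 15.6 to 17.9 TPM. General epithelial markers, 3 of 13 at 1 TPM or more, summed to 507 to 544 TPM in parental and 291 to 295 TPM in construct libraries. Fibroblast markers summed to 275 to 282 TPM in parental and 129 to 129.9 TPM in construct libraries, with Thy1 and Postn listed at 0 in all 4. Macrophage markers summed to 26.1 to 27.1 TPM in parental and 12.3 to 14.2 TPM in construct libraries, with Adgre1 listed at 0 in all 4, and 2 of 9 markers were at 1 TPM or more. The endothelial and lymphocyte sums were under 1 TPM in all 4 libraries. The part of these marker levels in the differences above was not tested.

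Given 4OHT, the same 2 cell populations were compared in 4 other libraries, where any response of the construct cells to 4OHT adds to the resting difference. Of 11208 genes, 9549 passed (85.2%), the median of all genes was -0.34, and 836 (7.46%) were at least 2-fold higher and 2384 (21.3%) at least 2-fold lower. That imbalance went with the scaling: after quantile normalization 1292 were at least 2-fold higher and 1221 lower (median of all genes -0.08), and after median centring 1330 and 1446 (-0.07). Of the 177 genes at least 2-fold higher at rest that were tested in both, 107 (60.5%) were at least 2-fold higher here too, which is 13.8% of the 778 found here. Of the 467 at least 2-fold lower at rest, 370 (79.2%) were at least 2-fold lower here, 15.7% of the 2362 found here. Fscn1 was 1.5 and 1.09 TPM in LLC_GD_4OHT and 207 and 209 TPM in LLC_WT_4OHT, and Crabp1 was 32.2 and 39.5 TPM against 0.661 and 0.387 TPM.

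Some of these genes also differed in cells with the other construct. Untreated MLKL-construct libraries were set against LLC_WT_4OHT, a pairing that shares no library with the untreated GSDMD comparison but differs in treatment, and 6427 of 11268 genes passed (57%). At least 2-fold higher were 160 (1.42%) and at least 2-fold lower 129 (1.14%), or 198 and 105 after median centring. Among genes tested in both, 75 of 168 genes at least 2-fold higher in GSDMD-construct cells (44.6%) were at least 2-fold higher there, or 54.7% of the 137 found there. Of the 470 genes at least 2-fold lower in GSDMD-construct cells, 85 (18.1%) were at least 2-fold lower there, or 69.1% of the 123 found there. Regardless of size, 136 of the 168 (81%) passed as higher there, against 22.7% of all genes tested in both. As lower there passed 334 of the 470 (71.1%), against 34.8%. Crabp1 was 53.8 and 54.5 TPM in the MLKL-construct libraries, Gm773 104 and 105 TPM and Nefl 18.3 and 18.9 TPM, close to or above the GSDMD-construct values. Fscn1 was 145 and 147 TPM, Trim44 11.6 and 11.5 TPM, Cadm1 10.1 and 9.83 TPM and Slc16a3 31.0 and 32.1 TPM in MLKL-construct cells, on the parental side.

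The direct test between untreated GSDMD-construct and MLKL-construct cells passed for 6617 of 11172 genes (59.2%), and 86 (0.77%) were at least 2-fold higher and 347 (3.11%) at least 2-fold lower. Gsdmd (log2 difference 4.84) and Esr1 (3.69) differed most upward, and Grap2 was 13.9 TPM in both GSDMD-construct and 1.62 and 1.41 TPM in MLKL-construct libraries (2.57). Fscn1 (-4.88) and Slc16a3 (-4.50) differed most downward among those not listed at 0 (limma, Benjamini-Hochberg adjusted p = 1.46e-11 and 4.77e-12). Plac8, a small cysteine-rich protein, was 22.3 and 21.3 TPM in MLKL-construct cells, listed at 0 in both GSDMD-construct libraries and 0 and 0.578 TPM in parental ones. Trim44 also differed. The naming rule further gives 5 microRNA rows (Mir546, Mir7688, Mir7079, Mir1905 and Mir6919), short transcripts that polyadenylated libraries measure poorly, and Mir7688, Mir7079 and Mir6919 lost their call when single libraries were left out (adjusted p = 0.0518 to 0.151). Crabp1 did not pass (log2 difference -0.32, SE 0.19; limma, Benjamini-Hochberg adjusted p = 0.178), nor did Gm773 (-0.34, SE 0.15), while Nefl differed by 0.24.

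Among the other untreated LLC groups, the libraries labelled LLC_noDig correlated most closely with LLC_GD_NT, with r between 0.976 and 0.98, against 0.972 to 0.973 for the MLKL-construct libraries and 0.962 to 0.963 for LLC_WT_NT. The libraries labelled LLC_noDig themselves correlated at least as closely with the MLKL-construct ones, with r between 0.98 and 0.982. Against LLC_WT_4OHT, 7491 of 11222 genes passed (66.8%), 244 (2.17%) at least 2-fold higher and 427 (3.81%) at least 2-fold lower, or 311 and 316 after quantile normalization and 328 and 315 after median centring. Among genes tested in both comparisons, 127 of 181 genes at least 2-fold higher in LLC_GD_NT than in LLC_WT_NT (70.2%) and 281 of 466 lower ones (60.3%) were so there, which is 55.7% of 228 and 67.1% of 419. Set directly against LLC_WT_NT, the libraries labelled LLC_noDig differed in 7474 of 11199 genes (66.7%), a comparison that shares its parental libraries with the main one. Fscn1 was 2.68 and 2.04 TPM, Trim44 and Armcx2 are listed at 0, and Crabp1 was 69.0 and 72.8 TPM in the libraries labelled LLC_noDig. With those libraries as the parental group, cell cycle genes were 18 higher and 4 lower, and interferon stimulated genes 5 higher and 3 lower, in place of 6 and 16 and of 0 and 13. In that setting 194 genes were at least 2-fold apart from LLC_GD_NT instead of the 678 of the main comparison. Of the 195 higher and 483 lower genes of the main comparison, 94 and 260 had both LLC_GD_NT libraries outside the range of all other untreated LLC libraries, the LLC_noDig and MLKL-construct ones included. Those genes include Xist, Ndn, Gsdmd, Fabp5 and Col5a2 among the higher ones, and Amot, Nnmt, Enpp2 and Havcr2 among the lower ones. All of them had been chosen for their distance from LLC_WT_NT, so that part of the range was largely fixed beforehand. The share of all tested genes outside the range was not computed, so these counts have no background to be read against.

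Of the genes 2-fold apart in LLC cells, a small share was so in NIH3T3 fibroblasts with the same construct, though above that of all genes there. Untreated NIH3T3_GD_NT and NIH3t3_WT_NT libraries differed in 6409 of 11620 genes (55.2%), 151 (1.3%) at least 2-fold higher and 134 (1.15%) at least 2-fold lower. Gsdmd was 1230.3 and 1135 TPM with and 6.14 and 5.44 TPM without the construct, and Esr1 126 and 145 TPM against 0 and 0.0153 TPM, above the LLC values. Among genes tested in both lines, 9 of 128 genes at least 2-fold higher in LLC construct cells (7.03%) were so in NIH3T3 cells, or 9.47% of 95, and 16 of 364 lower ones (4.4%), or 18.6% of 86. Regardless of size, 51 of the 128 (39.8%) passed as higher there, against 29.7% of all genes tested in both, and 29 (22.7%) as lower. Of the 364, 88 (24.2%) passed as lower there, against 26.2%, and 139 (38.2%) as higher. Tested directly, the construct difference in LLC minus that in NIH3T3 cells passed for 7415 of 12370 genes (59.9%), 3164 upward (25.6%) and 4251 downward (34.4%), or 4047 and 3491 after median centring. Upward, the largest differences were in Rhox5, Snord58b, Gm773, Crabp1, Esx1 and 3830403N18Rik. Rhox5, an X-linked homeobox gene of the reproductive tract, was 642 and 622 TPM in parental and 1312 and 1307 TPM in construct LLC cells, but 317 and 306 TPM in parental and 15.7 and 15.6 TPM in construct NIH3T3 cells (interaction 5.28). Crabp1 was 786 and 851 TPM in parental and 1029 and 1056 TPM in construct NIH3T3 cells, so the gene near 0 in parental LLC cells was abundant in both fibroblast groups. Downward, Fscn1 was 155 and 161 TPM in parental and 182 and 175 TPM in construct NIH3T3 cells (interaction -5.53; limma, Benjamini-Hochberg adjusted p = 2.72e-25). Of 21 tested cholesterol genes, 16 were lower and 1 higher in LLC cells, or 11 lower after quantile normalization or median centring. In NIH3T3 cells 21 of 21 were lower, against 25.4% of all genes there. Insig1 was -1.51 there and -1.41 in LLC cells, with an interaction of 0.10 that did not pass (SE 0.051; limma, Benjamini-Hochberg adjusted p = 0.08). Other LLC comparisons of this list varied. With both populations given 4OHT, 8 of the 21 were higher and 13 lower. Against LLC_WT_4OHT, 19 were higher and 0 lower in untreated MLKL-construct libraries, and 9 higher and 2 lower in those labelled LLC_noDig. Between untreated GSDMD-construct and MLKL-construct cells, 0 were higher and 21 lower. Egr1 was lower at rest in LLC construct cells and higher in NIH3T3 ones (log2 fold change 2.12), and the difference between the lines passed (-2.62; limma, Benjamini-Hochberg adjusted p = 2.75e-17). Ptgs2 likewise was -0.53 in LLC and 1.25 in NIH3T3 cells (interaction -1.77), and Hmox1 was higher in both, 1.06 and 1.59.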

How the data were processed

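Polyadenylated RNA was sequenced from each library. The authors deposited TPM values per gene in a mouse and a human table; per the submitters' processing notes Salmon was used, with builds mm10 and hg19, and the Salmon version is not given in the sources used here. Only the mouse table was used, with 19407 rows, of which 18366 (94.6%) matched a gene of GENCODE vM21 by symbol. TPM sums to between 999935 and 999980 per library and keeps no depth, so no counting error could be given, and a value of 0 may be a failed estimate. The design had foreseen a count test; because the values are TPM, limma 3.58.1 (limma-trend, R 4.3.3) was fitted to log2(TPM + 1), with groups taken from the labels. LLC contrasts came from 1 model of 16 libraries and the NIH3T3 contrast from 1 model of 35 libraries. The difference between the lines came from 1 model of 51 libraries. A gene entered a contrast where at least 2 of its libraries held 1 TPM or more; a call needed an adjusted p under 0.05 (Benjamini-Hochberg over all genes tested), and a 2-fold call also a log2 fold change of at least 1 in size. Tested on simulated data for the untreated comparison (11113 genes), the fit called 91% of 67 genes changed 1.5-fold, 97% of 67 changed 2-fold, 100% of 66 changed 4-fold and 10 of 10913 unchanged genes. The simulation drew independent normal noise from each gene's spread within groups, and changed only genes at 5 TPM or more in LLC_WT_NT. It therefore does not cover changes in lower genes, or a spread between libraries that is only technical.

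Named genes were Gsdmd, Esr1 and Mlkl, the 14 largest rises and 14 largest falls among called genes at 5 TPM or more in the higher group, up to 4 genes of each list by smallest p, 10 genes of the permeabilization response, and the 6 largest differences each way for the MLKL-construct contrast and for the difference between the lines. The members, the lists and this rule were chosen with earlier results of these data known. 3 genes that the rule names are not reported here. Alternatives covered the pseudocount, quantile normalization, median centring, the filter, small RNA rows, the replicate block, each replicate left out and the choice of parental libraries. The contrasts against LLC_WT_4OHT, the count of lost and gained genes and the fit without the LLC_noDig and LLC_Digitonin libraries were chosen only once the data had been seen. Human samples were not analysed here. Figures were drawn with matplotlib 3.10.9.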

Additional observations from a re-analysis of the deposited data

Results flagged for a closer look

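The GSDMD construct difference was not the same in LLC and NIH3T3 cells for 7415 of 12370 genes, by the interaction term of limma with Benjamini-Hochberg adjustment. The values that follow are differences in log2 fold change, LLC minus NIH3T3. Toward LLC, Rhox5 differed by 5.28, Gm773 by 4.73, Crabp1 by 4.51, Esx1 by 4.50 and 3830403N18Rik by 4.32. The X-linked 3830403N18Rik was 53.8 and 60.4 TPM in parental and 102 and 99.2 TPM in construct LLC cells, but 28.0 and 27.8 TPM in parental and 1.41 and 1.68 TPM in construct NIH3T3 cells. Snord58b differed by 5.13, but this small RNA row is listed at 0 in several libraries and did not pass without NIH3t3_WT_NT replicate 2, where it was 15.2 TPM. In the other direction Fscn1 differed by -5.53, Ugt1a7c by -4.18 and Amot by -4.06. Trim44 (-4.59) and Armcx2 (-4.12) are listed at 0 in construct LLC cells, so these 2 values depend on the pseudocount. D430020J02Rik differed by -5.90: it was 5.63 and 6.49 TPM in parental and 5.46 and 5.43 TPM in construct LLC cells, and 9.08 and 9.65 TPM in parental and 558 and 573 TPM in construct NIH3T3 cells.

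Reads of the construct genes appeared in libraries labelled with construct None. Mean Gsdmd was 335 TPM in the libraries labelled LLC_noDig and 331 TPM in those labelled LLC_Digitonin, and mean Esr1 was 32.9 and 31.6 TPM, above the level of both groups of parental cells.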

How the results depend on the processing

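The count of genes that passed in the untreated comparison stayed within 1.5 times of 6898 under each alternative run, and was 5962 to 6135 with 1 replicate left out. The count at least 2-fold apart (678) was 661 to 688 with 1 replicate left out, 968 with a pseudocount of 0.1 (298 higher, 670 lower), 431 with a filter of 5 TPM, 194 with the libraries labelled LLC_noDig as parental cells and 278 with those and LLC_WT_NT together. The 5 TPM filter tests fewer genes; the cause of the other shifts was not tested. With 1 replicate left out, the other comparisons gave 9166 to 9183 (both given 4OHT), 6675 to 7060 (LLC_WT_NT against the libraries labelled LLC_noDig), 5487 to 5766 (GSDMD against MLKL construct), 5424 to 5608 (NIH3T3), 6895 to 7020 (difference between the lines), 5233 to 5300 (MLKL construct against LLC_WT_4OHT), 6638 to 7132 (LLC_noDig against LLC_WT_4OHT) and 18 to 30 (parental cells given 4OHT against untreated, 96 in full). That last count was 27 on its own libraries alone and 36 with the replicate block. A group left with 1 library was assumed to vary like the others.

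Same-numbered libraries share only a number: their deviations correlated with r = 0.0444 at rest, 0.0271 with 4OHT and -0.0406 for the MLKL construct. With the replicate block 6713 genes passed in the untreated comparison, 680 of them at least 2-fold apart, and none of the 93 named genes changed its call.

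Of those 93 genes, 93 kept direction and call with a pseudocount of 0.1 and 83 of 83 with the 5 TPM filter. Ier3 turned sign, without passing, after quantile normalization (0.0241) and median centring (0.0508), and it ran from -0.0650 to 0.0158 without 1 or the other LLC_WT_NT replicate. Lif, which did not pass either, ran from -0.0296 to 0.166 in the same way, and Chac1 turned with LLC_WT_NT and LLC_noDig together (-0.0219). With the libraries labelled LLC_noDig as parental cells, 45 of 79 genes kept direction and call and 20 turned sign: Esr1 (-0.55), Crabp1 (-0.70), Gm773 (-0.16), Esx1 (-0.12), Nefl (-0.69), Loxl2 (-0.0714), Fscn1 (0.57), Csf1 (-0.12), Myc (-0.66), Maff (0.0217), Vcam1 (0.58), Ifi35 (0.12), Ddit4 (0.30), Nqo1 (0.35), Cdkn2c (0.14), Aurka (0.28), Itga7 (0.18), Ccnd1 (-0.0158), Hmox1 (-0.45) and Chac1 (-0.37). The cause was not tested, beyond the Gsdmd and Esr1 levels of those libraries given above.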
